A study of Mus musculus with 10 samples.

Results

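The cell-division programme of obese mouse fat was followed through 38 listed gene symbols in epididymal white adipose tissue. Members were the rows whose gene name equals a listed symbol, and 36 of the 38 symbols had such a row among the 23930 genes of the count table. Of these, 15 act in DNA replication or in the entry to S phase, and 21 act in mitosis or mark cycling cells from S phase to mitosis. Ccnb1 and Pcna were not analysed here. In all, 35 members passed the filter on low counts that 12719 genes passed; the other one, Bub1, had 0 to 24 reads per library. The replication group is Ccne1, Ccne2, Cdc6, Cdt1, Gmnn, Mcm2 to Mcm7, Rrm1, Rrm2, Tyms and Tk1. The mitosis group is Mki67, Top2a, Ccna2, Ccnb2, Cdk1, Plk1, Aurka, Aurkb, Birc5, Bub1, Bub1b, Cdc20, Ube2c, Cenpa, Cenpe, Cenpf, Tpx2, Kif11, Kif20a, Nusap1 and Prc1.

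Before a cell copies its DNA, CDC6 and CDT1 load the MCM helicase onto replication origins, geminin (Gmnn) blocks a further round of loading, and E-type cyclins drive the entry into S phase. Ribonucleotide reductase (Rrm1, Rrm2), thymidylate synthase (Tyms) and thymidine kinase (Tk1) supply the nucleotides. Later, cyclin A and cyclin B with CDK1 bring the cell into mitosis, Polo and Aurora kinases and kinesin motors build the spindle, the BUB proteins hold the checkpoint, and CDC20 and UBE2C act in the destruction of the cyclins. Mature adipocytes are non-dividing cells. In the fat of obese mice, macrophages are known to divide locally as well as to arrive from the blood, and progenitors, endothelial cells and lymphocytes can divide too.

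The tissue came from 5 male Srgn-/- mice, which lack serglycin, and 5 male Srgn+/+ mice. Serglycin is the proteoglycan that packs charged mediators into the granules and secretory vesicles of immune cells. All 10 animals were C57BL/6 mice, 18 weeks old, and each received the high sucrose/high fat diet over 8 weeks, so that no lean group stands beside them. RNA of the whole fat pad was read with an amplicon panel, which counts 1 short stretch per gene, and the libraries held 7824764 to 10757779 reads. Levels are given as CPM, reads of the gene relative to the library's scaled total. That total is the library's reads in the genes kept by the low-count filter, times its TMM scaling factor (0.953 to 1.06). Amplicons differ in efficiency, so levels were compared between libraries and not between genes. Replicate numbers, given in accession order, name a library and nothing more.

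The knocked-out gene fitted the labels in every library. Srgn had 3, 1, 0, 0 and 12 reads in the Srgn-/- libraries, against 776, 1047, 1301, 851 and 1005 reads in the Srgn+/+ libraries, and its log2 fold change was -8.18 (SE 0.508, adjusted p = 9.44e-05, edgeR). The deposited files do not say where in the gene its amplicon lies. Adipocyte markers summed to 50548 to 73270 CPM in Srgn-/- fat and to 53142 to 80417 CPM in Srgn+/+ fat. Macrophage markers summed to 2262 to 4632 CPM in Srgn-/- fat and to 2120 to 7835 CPM in Srgn+/+ fat. Genes of the epididymis, the duct on which this fat pad lies, reached 7792 CPM in Srgn-/- 3 and 1089 CPM in Srgn-/- 5, against 875 CPM in Srgn+/+ 4. Results are therefore also given without these 3 libraries where that changed them. Testis germ cell genes summed to 446 CPM in Srgn+/+ 4, 148 CPM in Srgn+/+ 1, 111 CPM in Srgn-/- 5 and 98.8 CPM in Srgn-/- 3. The other libraries had 9.57 to 56.3 CPM. Srgn+/+ 1 is not among the 3 libraries left out. The part of such RNA in the proliferation genes was not tested. The labels name no batch.

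Promoters of the members were searched for the sequence words by which replication and mitosis genes are usually told apart. The share that carried a word differed from word to word. Genes expressed at the entry to S phase are typically bound by E2F factors, and genes expressed late in the cycle carry the cell cycle homology region (CHR), bound by the MuvB complex, often next to a CCAAT box bound by NF-Y. RefSeq promoter entries (GRCm38.p6) were matched by symbol for 29 of the 36 members, and the 250 bases before each start were searched on both strands. The CHR words TTTGAA and TTCGAA stood in 9 of 17 mitosis promoters (52.9%) and in 2 of 12 replication promoters (16.7%), against 14.6% of 9665 tested genes with an entry. A CCAAT word stood in 15 of 17 mitosis promoters (88.2%) and in 7 of 12 replication promoters (58.3%), against 39.5% of the tested genes. An E2F word (TTTGGCGC, TTTCCCGC, TTTGCCGC or TTTCGCGC) stood in 4 of 12 replication promoters (33.3%) and in 1 of 17 mitosis promoters (5.88%), against 3.69% of the tested genes. In the stretches printed next, words of different kinds share no letters, while E2F words on opposite strands can. A match is a description of the letters and not a bound site, and the files hold no measurement of binding. An absent word is not an absent site either, because only these exact words in the 250 bases before the start were searched.

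The promoter stretches of 5 members, picked from those that carry the words, show both layouts. By contrast, Birc5, Nusap1, Tk1, Cdt1, Ccne1 and Tyms had none of the 3 kinds of word. Each is given 5′ to 3′ on the gene's own strand, with every match of the 3 kinds of word in capitals. Kif11 (chr19:37376282-37376381, plus strand), Top2a (chr11:99024200-99024339, minus strand) and Cdk1 (chr10:69352939-69353052, minus strand) are mitosis genes with CHR and CCAAT words. Mcm6 (chr1:128359706-128359825, minus strand) and Mcm5 (chr8:75109349-75109467, plus strand) are replication genes with E2F and CCAAT words and no CHR word. Cdk1 is the mitosis gene that also carries an E2F word.
Kif11: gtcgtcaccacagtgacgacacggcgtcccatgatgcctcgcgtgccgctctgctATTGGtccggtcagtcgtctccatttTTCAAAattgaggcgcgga
Top2a: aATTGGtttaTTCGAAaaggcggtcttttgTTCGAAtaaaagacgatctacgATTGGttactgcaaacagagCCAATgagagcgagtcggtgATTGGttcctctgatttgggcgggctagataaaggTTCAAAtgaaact
Cdk1: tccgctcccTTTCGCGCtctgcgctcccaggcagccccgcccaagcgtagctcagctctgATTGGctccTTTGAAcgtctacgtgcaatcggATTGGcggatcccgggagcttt
Mcm6: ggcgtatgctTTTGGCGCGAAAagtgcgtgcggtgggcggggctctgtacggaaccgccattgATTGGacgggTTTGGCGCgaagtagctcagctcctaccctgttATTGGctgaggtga
Mcm5: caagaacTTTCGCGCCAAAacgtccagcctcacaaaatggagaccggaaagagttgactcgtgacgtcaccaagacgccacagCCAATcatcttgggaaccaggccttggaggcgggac

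Proliferation genes varied widely from animal to animal, and they varied together. A level was set for each gene group in each library as the mean over its tested genes of log2 CPM, centred on each gene's mean. The mitosis level was 0.71, -0.37, -0.33, 0.25 and -0.08 in Srgn-/- 1 to 5, and -1.27, -0.07, 0.45, 0.07 and 0.64 in Srgn+/+ 1 to 5. Its highest and lowest libraries lay 3.94-fold apart. The replication level was 0.56, -0.50, -0.45, 0.14 and -0.03 in Srgn-/- 1 to 5, and -0.82, 0.24, 0.35, 0.06 and 0.45 in Srgn+/+ 1 to 5. Here the range was 2.62-fold. The library Srgn-/- 1 was highest in both groups of genes and Srgn+/+ 1 was lowest in both, so that the extremes lay in opposite genotypes and the genotypes overlapped.

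**Figure D1:**
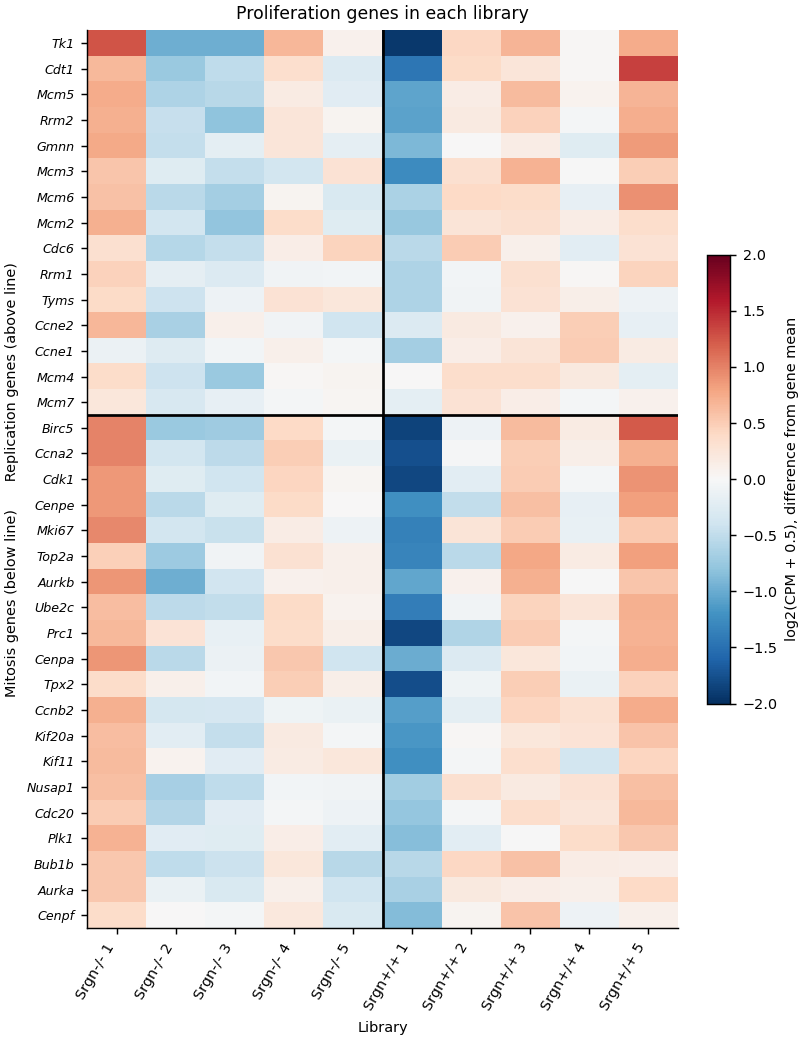
Level of each tested member (rows; 15 replication genes above the line, 20 mitosis genes below it) in each library (columns; 5 Srgn-/- on the left, 5 Srgn+/+ on the right), as log2(CPM + 0.5) minus the gene's mean over the 10 libraries. Red is above the gene's mean and blue below it; Srgn-/- 1 and Srgn+/+ 5 are red in most rows, and Srgn+/+ 1 is the bluest column, most of all for mitosis genes.

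Single members followed this order closely. Of the 36 members, 30 were lowest in Srgn+/+ 1, among them all 21 mitosis genes, while 19.4% of all tested genes were lowest there. The highest value lay in Srgn-/- 1 for 17 members, against 9.63% of all tested genes. It lay in Srgn+/+ 5 for 12 members, a count without a background because the share of all tested genes there was not computed. Between 2 mitosis genes the correlation of log2 CPM over the 10 libraries had a median of 0.87 over 190 pairs (range 0.45 to 0.99). Between 2 replication genes the median was 0.74 over 105 pairs, and between a replication and a mitosis gene it was 0.79 over 300 pairs, whereas pairs of all tested genes had a median of -0.001. These correlations describe 10 libraries that share their differences in cell make-up. In the bulk tissue, fewer dividing cells and less RNA per dividing cell cannot be told apart.

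Mitosis and replication genes did not move by the same amount in every library. The mitosis level minus the replication level was 0.14, 0.13, 0.13, 0.11 and -0.05 in Srgn-/- 1 to 5, and -0.44, -0.31, 0.10, 0.01 and 0.18 in Srgn+/+ 1 to 5. The libraries Srgn+/+ 1 and Srgn+/+ 2 lay below the other 8, which differed little among themselves. This difference between the 2 gene groups was not tested.

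No proliferation gene differed between Srgn-/- and Srgn+/+ fat beyond the spread between animals. Called means an adjusted p under 0.05 in edgeR's quasi-likelihood test, adjusted with Benjamini-Hochberg over all 12719 genes. By this rule 0 of 35 members were called, where 1 gene of the whole table (0.00786%), Srgn itself, was called. At an unadjusted p under 0.05 there were also 0 members, against 12.8% of all tested genes, and DESeq2, which called 1.78% of all tested genes, limma-voom and limma-trend, which called 0.00786% each, called 0 members as well. No member had groups that did not overlap, against 2.78% of all tested genes. Of the replication genes, 12 had a lower and 3 a higher value in Srgn-/- fat, with a median log2 fold change of -0.10. The mitosis genes stood at 10 lower and 10 higher, with a median of 0.02, beside a median of -0.00138 over all tested genes.

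The data leave room for moderate differences. The standard error of a member's log2 fold change ranged from 0.122 to 0.553 with a median of 0.324, above the median over all tested genes, 0.165. In counts simulated for this comparison, 75.5% of 200 genes changed by 1 on the log2 scale were recovered, and 31% of those changed by 0.5. The changed genes were picked from all tested genes. Their simulated spread left out the part that goes with the macrophage score, which the members follow. The shares recovered are thus not those of the members, whose larger standard errors make a call harder. Genotype differences of 0.5 to 1 on the log2 scale may therefore have been missed in members with 5 animals a group.

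Among the replication genes, the smallest p-values of the genotype test belonged to Mcm4, Mcm6, Ccne1 and Cdt1. Mcm4, a helicase subunit, had 42.8, 24.9, 19.6, 33.7 and 34.6 CPM in Srgn-/- 1 to 5, and 33.6, 42.8, 42.6, 38.1 and 29.1 CPM in Srgn+/+ 1 to 5. Its log2 fold change was -0.26 (SE 0.193, adjusted p = 0.592, edgeR). The groups overlapped over most of their range. Mcm6, another helicase subunit, with the E2F words printed above, had 57.4, 26.2, 23.8, 39.7 and 30.9 CPM in Srgn-/- fat, and 24.6, 50.6, 49.4, 33.97 and 72.7 CPM in Srgn+/+ fat (log2 fold change -0.37, SE 0.309). Its lowest library was Srgn-/- 3 and its highest Srgn+/+ 5. Ccne1, the E-type cyclin that drives S-phase entry, was the steadiest of the 4 in Srgn-/- fat, at 8.53, 7.70, 8.93, 9.95 and 9.07 CPM, against 5.58, 10.2, 11.2, 13.4 and 10.5 CPM in Srgn+/+ fat (log2 fold change -0.20, SE 0.206). For Cdt1, the loading factor, the values were 12.3, 4.401, 5.24, 9.82 and 6.23 CPM in Srgn-/- fat, and 2.50, 10.1, 9.14, 7.78 and 20.6 CPM in Srgn+/+ fat (log2 fold change -0.39, SE 0.465). That value turned to 0.04 without Srgn+/+ 5, so the lower mean rested on 1 library.

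Mcm2, a helicase subunit often used as a marker of cycling cells, had 26.6, 12.3, 9.05, 20.7 and 13.4 CPM in Srgn-/- fat, and 9.24, 19.3, 20.1, 17.7 and 20.6 CPM in Srgn+/+ fat. Its log2 fold change was -0.08 (SE 0.297, adjusted p = 0.936, edgeR), and Srgn+/+ 1 stood apart from the other 4 Srgn+/+ libraries.

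Among the mitosis genes, Bub1b, Nusap1, Kif11 and Prc1 had the smallest p-values. Bub1b, a spindle checkpoint gene, had 13.04, 6.05, 6.43, 10.5 and 5.90 CPM in Srgn-/- fat, and 5.87, 12.0, 13.6, 9.84 and 9.82 CPM in Srgn+/+ fat (log2 fold change -0.29, SE 0.277, adjusted p = 0.686, edgeR). Nusap1, a spindle protein, had 8.33, 3.19, 3.57, 5.10 and 5.03 CPM in Srgn-/- fat, and 3.08, 6.78, 6.09, 6.63 and 8.36 CPM in Srgn+/+ fat (log2 fold change -0.28, SE 0.309). In both genes the genotypes shared nearly the whole range. Kif11, the kinesin that pushes spindle poles apart, had 7.55, 4.95, 3.93, 5.36 and 5.57 CPM in Srgn-/- fat, and 1.73, 4.59, 6.09, 3.55 and 6.50 CPM in Srgn+/+ fat (log2 fold change 0.29, SE 0.323). Prc1, which bundles microtubules of the central spindle, had 11.4, 8.69, 6.31, 9.31 and 7.76 CPM in Srgn-/- fat, and 1.64, 4.49, 10.3, 6.86 and 11.8 CPM in Srgn+/+ fat (log2 fold change 0.32, SE 0.408). The higher means of Kif11 and Prc1 went with the very low value of Srgn+/+ 1.

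The proliferation marker Mki67 and the topoisomerase gene Top2a showed the same overlap. Mki67 had 15.4, 5.83, 5.48, 8.55 and 7.10 CPM in Srgn-/- fat, and 2.69, 9.27, 11.1, 6.86 and 11.3 CPM in Srgn+/+ fat (log2 fold change 0.05, SE 0.384, adjusted p = 0.970, edgeR). Top2a had 23.5, 10.01, 16.1, 20.8 and 18.0 CPM in Srgn-/- fat, and 6.45, 11.5, 29.1, 19.0 and 30.3 CPM in Srgn+/+ fat (log2 fold change -0.12, SE 0.390). Bub1, a checkpoint kinase gene too low to be tested, had 24, 8, 6, 7 and 10 reads in Srgn-/- fat, and 0, 3, 8, 9 and 16 reads in Srgn+/+ fat. A count of 0 in Srgn+/+ 1 allows up to 0.289 CPM there, for counting error only.

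The sign of the genotype values depended on the most extreme pair of libraries. With Srgn-/- 1 and Srgn+/+ 1 left out together, a choice made after seeing the data, all 35 members had lower values in Srgn-/- fat, with a median log2 fold change of -0.44. These libraries had the highest and the lowest level of both gene groups. Leaving them out had to lower the difference of the group levels, so its direction says nothing about genotype. Even then 0 members were called by edgeR, where the smallest adjusted p was 0.0747, beside 407 genes (3.20%) called over the whole table. At an unadjusted p under 0.05 in that fit stood 16 members. The share of all tested genes there was not computed, so this count cannot be read as an excess. Without the 3 libraries with epididymis RNA, the difference of the group levels, Srgn-/- minus Srgn+/+, was 0.02 for replication genes and 0.26 for mitosis genes, against -0.11 and 0.07 over all libraries.

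**Figure D2:**
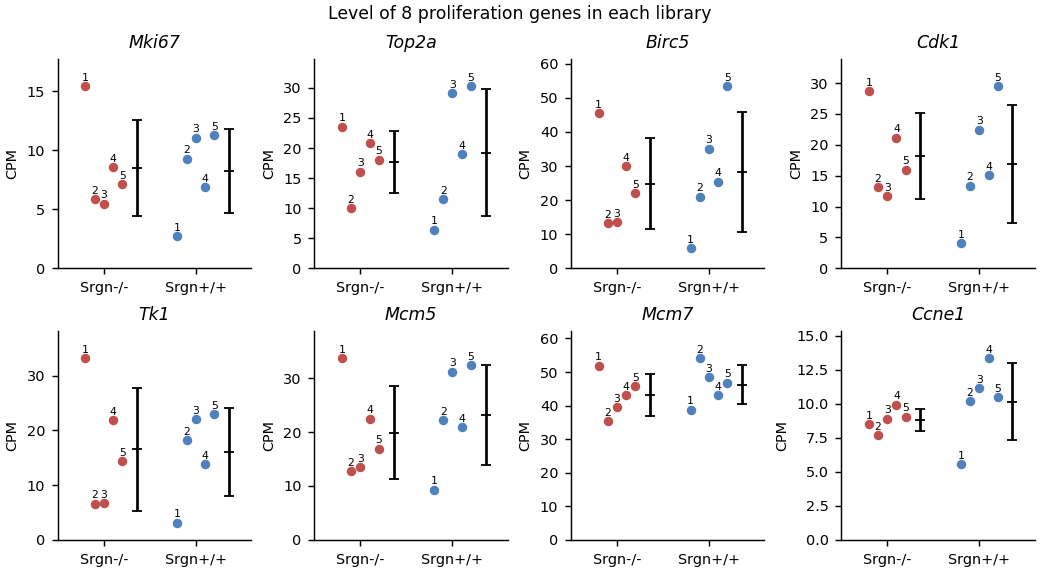
CPM of 8 members in each library (points, numbered by replicate), Srgn-/- in red on the left and Srgn+/+ in blue on the right of each panel, with the mean and SD of each genotype as a bar. In Mki67, Top2a, Birc5, Cdk1, Tk1 and Mcm5 the genotypes overlap and Srgn+/+ 1 lies at the bottom; Mcm7 stays between 35.3 and 54.2 CPM in all libraries, and Ccne1 between 5.58 and 13.4 CPM.

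The members rose with the macrophage content of the fat pad. Macrophage content was scored in each library as the mean log2 CPM of 19 macrophage genes, among them Adgre1, Cd68, Csf1r and Lyz2, none of which is a member. The macrophage level was 0.38, -0.76, -0.59, 0.22 and -0.28 in Srgn-/- 1 to 5, and -0.84, 0.16, 0.59, 0.27 and 0.85 in Srgn+/+ 1 to 5, a 3.23-fold range. Each gene's slope is its log2 change per SD of that score (0.584 on the log2 scale), from an edgeR fit with genotype as a term. With the same threshold, 30 of 35 members rose with the score and 0 fell, against 13.6% of all tested genes that rose and 9.03% that fell. All 35 slopes were positive.

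Mitosis genes were called without exception, and replication genes in part. All 20 tested mitosis genes rose with the score, with a median slope of 0.64 and a range of 0.36 to 0.999. Of the replication genes, 10 of 15 rose, with a median slope over the 15 of 0.51 and a range of 0.14 to 1.07. The median over all tested genes was -0.00409, and that of the macrophage genes themselves, which make up the score, was 0.57. Whether mitosis slopes exceed replication slopes was not tested.

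**Figure D3:**
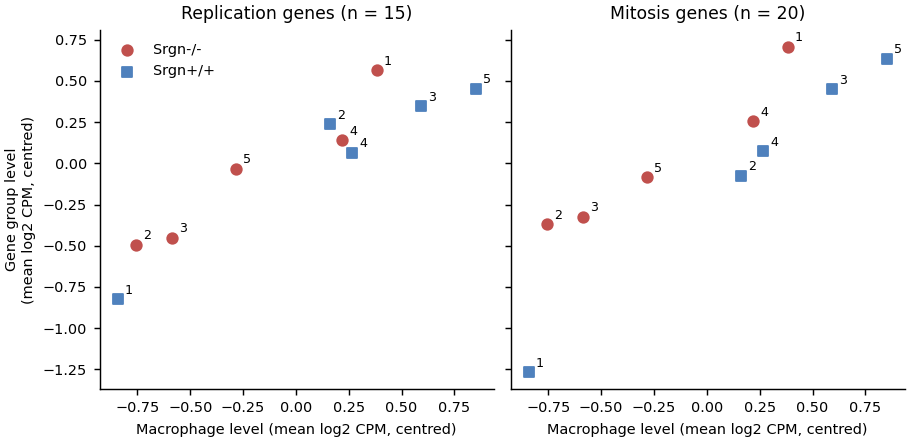
Replication level (left) and mitosis level (right) of each library against its macrophage level, all as mean log2 CPM centred per gene; red circles are Srgn-/- and blue squares Srgn+/+ libraries, numbered by replicate. Both levels climb with the macrophage level in both genotypes; in the right panel Srgn-/- 1, 2, 3 and 4 lie above the Srgn+/+ library nearest to them in macrophage level.

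In the machinery that copies DNA, the steepest slopes belonged to Tk1, Cdt1, Mcm5 and Rrm2. Tk1 had 33.2, 6.60, 6.67, 21.8 and 14.4 CPM in Srgn-/- 1 to 5, and 3.18, 18.3, 22.03, 13.8 and 23.0 CPM in Srgn+/+ 1 to 5, a 10.5-fold range. Its slope was 1.07 (SE 0.109, adjusted p = 7.72e-06, edgeR), that is 2.10-fold per SD of the score. Thymidine kinase salvages thymidine for DNA synthesis, and its gene had the widest range of the tested members. Cdt1, whose values are given above, had a slope of 0.86 (SE 0.111). Mcm5 had 33.7, 12.8, 13.5, 22.5 and 16.9 CPM in Srgn-/- fat, and 9.34, 22.2, 31.2, 20.9 and 32.4 CPM in Srgn+/+ fat, with a slope of 0.66 (SE 0.0645, adjusted p = 5.70e-06, edgeR). Its 4 lowest libraries, Srgn-/- 2, 3 and 5 and Srgn+/+ 1, were also the 4 lowest in macrophage level. Rrm2, the regulated subunit of ribonucleotide reductase, had 26.1, 11.3, 8.81, 18.6 and 16.4 CPM in Srgn-/- fat, and 7.22, 17.9, 21.9, 15.3 and 26.3 CPM in Srgn+/+ fat, with a slope of 0.64 (SE 0.0785).

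Of the 6 subunits of the MCM helicase, 4 were called and 2 were not. Slopes were 0.66 for Mcm5, 0.53 for Mcm3, 0.52 for Mcm6 and 0.51 for Mcm2, all called, with adjusted p from 5.70e-06 to 0.0119 (edgeR). Mcm4 had a slope of 0.17 (SE 0.0979, adjusted p = 0.2501) and Mcm7 one of 0.14 (SE 0.0564, adjusted p = 0.0831). Mcm7 had 51.9, 35.3, 39.5, 43.1 and 45.7 CPM in Srgn-/- fat, and 38.8, 54.2, 48.4, 43.0 and 46.8 CPM in Srgn+/+ fat, the narrowest range of all members at 1.53-fold. Its slope lay below those of the called subunits by more than their standard errors, though the difference between slopes was not tested. Each subunit was read through 1 amplicon.

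Of the other replication genes, 3 were not called and 3 more, beside those above, were. Slopes were 0.25 for Ccne1 (adjusted p = 0.105), 0.26 for Ccne2 (adjusted p = 0.260) and 0.35 for the loading factor Cdc6 (adjusted p = 0.0875), all from edgeR. Ccne2 and Cdc6 were low, with 2.42 to 7.26 CPM in any library. The slopes of Gmnn, 0.57, Rrm1, 0.34, and Tyms, 0.31, were called.

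In mitosis, the smallest p-values belonged to Birc5, Ube2c, Ccna2 and Cdk1. Birc5, which encodes survivin, a subunit of the chromosomal passenger complex, had 45.5, 13.3, 13.6, 29.98 and 21.97 CPM in Srgn-/- 1 to 5, and 5.87, 21.02, 35.02, 25.4 and 53.3 CPM in Srgn+/+ 1 to 5. Its slope was 0.999 (SE 0.0668, adjusted p = 2.21e-07, edgeR), the steepest of the mitosis genes, or 1.999-fold per SD of the score. Ube2c, the ubiquitin-conjugating enzyme that works with the anaphase-promoting complex, had 56.3, 25.2, 25.6, 47.6 and 38.1 CPM in Srgn-/- fat, and 13.6, 34.4, 49.8, 42.9 and 59.8 CPM in Srgn+/+ fat, with a slope of 0.69 (SE 0.0575). In both genes Srgn+/+ 5 was highest and Srgn+/+ 1 lowest, as in macrophage level. Ccna2, the cyclin of S phase and early mitosis, had 53.2, 20.4, 18.1, 37.4 and 24.0 CPM in Srgn-/- fat, and 7.41, 25.8, 37.4, 28.6 and 43.7 CPM in Srgn+/+ fat, with a slope of 0.83 (SE 0.0708). Cdk1, the kinase that triggers mitosis, had 28.7, 13.1, 11.7, 21.2 and 16.0 CPM in Srgn-/- fat, and 4.04, 13.4, 22.4, 15.1 and 29.5 CPM in Srgn+/+ fat, with a slope of 0.82 (SE 0.0848). Srgn-/- 1 was the highest library for Ccna2 although 2 libraries exceeded it in macrophage level.

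The other tested mitosis genes rose too, with slopes of 0.36 to 0.78. Mki67 had a slope of 0.70 (SE 0.110, adjusted p = 0.000352) and Top2a one of 0.70 (SE 0.100, adjusted p = 0.000182), both from edgeR. Among kinases, Aurkb had a slope of 0.69, Plk1 0.47 and Aurka 0.37, and the checkpoint gene Bub1b had one of 0.43. Of the centromere proteins, Cenpe, a kinetochore motor, had a slope of 0.78, Cenpa, the centromeric histone, 0.64, and Cenpf, which joins the kinetochore late in the cycle, 0.36, the smallest of the mitosis genes. Spindle and midzone genes lay at 0.68 for Prc1, 0.63 for Tpx2, 0.54 for Kif20a, 0.52 for Kif11 and 0.51 for Nusap1. Ccnb2, a B-type cyclin, had a slope of 0.59, and Cdc20, an activator of the anaphase-promoting complex, 0.48. Without the filter on low counts Bub1 was tested too, with a slope of 1.21 (adjusted p = 0.0294, edgeR), and 31 of 36 members were called, against 7.34% of all genes.

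**Figure D4:**
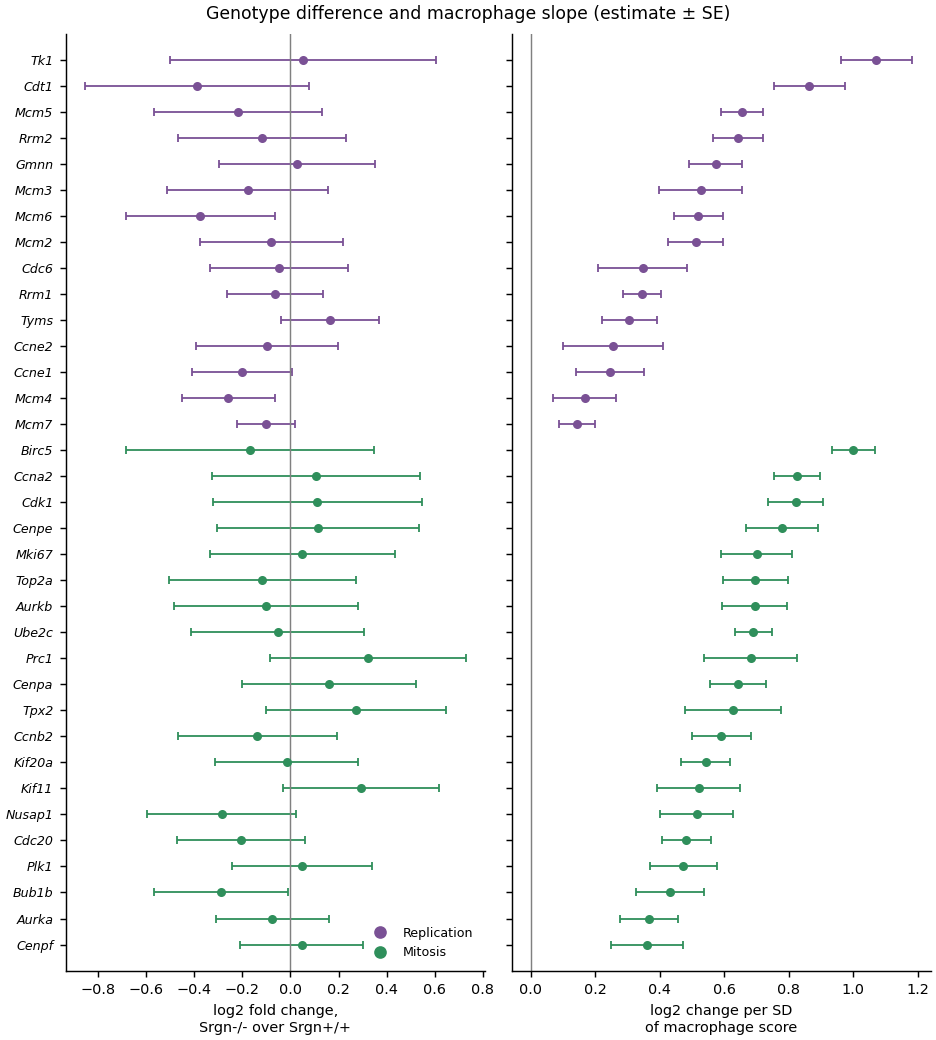
Estimate ± SE for each tested member: on the left the log2 fold change, Srgn-/- over Srgn+/+, and on the right the slope on the macrophage score (log2 change per SD of the score), with replication genes in purple above and mitosis genes in green below, ordered by slope. The genotype values scatter on both sides of 0 within -0.39 to 0.32, while all 35 slopes lie above 0, from 0.14 for Mcm7 to 1.07 for Tk1.

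Gene by gene and without a model, 25 of 35 members correlated with the macrophage score over the 10 libraries, 9 replication and 16 mitosis genes. The rule was an adjusted p under 0.05 in a 2-sided permutation test of Pearson's r, adjusted over all 12719 genes, of which 10.9% passed it in the positive direction. By Spearman's rho 22 members passed, against 10.4% of all tested genes in either direction, and the median over the members was 0.85 for r and 0.85 for rho. The group levels had r = 0.88 and rho = 0.95 for mitosis and r = 0.94 and rho = 0.92 for replication, given without a p because the members were chosen with results known. Without Srgn+/+ 1 and Srgn-/- 2, the 2 libraries farthest from the median score, r was 0.86 and 0.88. Over those 8 libraries the members' median r was 0.77, with 0.93 for Mcm5, 0.905 for Birc5 and 0.89 for Ube2c. The permutation test then passed 1 member, Mcm5, against 2.48% of all tested genes in either direction, and 315 genes in all, against 2182 over the 10 libraries.

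The rise with macrophage content appeared within each genotype, with differences in detail. Over the 5 Srgn-/- libraries alone, all 35 slopes were positive and 19 were called by edgeR (8 replication, 11 mitosis), against 5.77% of all tested genes. Over the 5 Srgn+/+ libraries alone, 34 slopes were positive and 24 were called (9 replication, 15 mitosis), against 8.07%. The median slope of the mitosis genes was 0.52 in Srgn-/- fat and 0.66 in Srgn+/+ fat, and that of the replication genes was 0.47 in Srgn-/- fat and 0.40 in Srgn+/+ fat. The test of the difference between the genotypes' slopes called 0 members and 0% of all tested genes. Its smallest unadjusted p-values among the members, all from edgeR, were 0.00275 for Prc1, 0.00994 for Tpx2, 0.0135 for Cdk1 and 0.0232 for Mcm4. The slope of Prc1 was 0.25 in Srgn-/- fat and 1.02 in Srgn+/+ fat, and that of Tpx2, a spindle assembly factor, was 0.23 in Srgn-/- fat and 0.93 in Srgn+/+ fat. Both genes were lowest in Srgn+/+ 1, with 17 reads of Prc1 and 12 of Tpx2. Without that library neither slope over both genotypes was called. Whether the difference between the genotypes' slopes holds without it was not tested. Mcm4 had slopes of 0.42 in Srgn-/- fat and -9.05e-05 in Srgn+/+ fat.

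**Figure D5:**
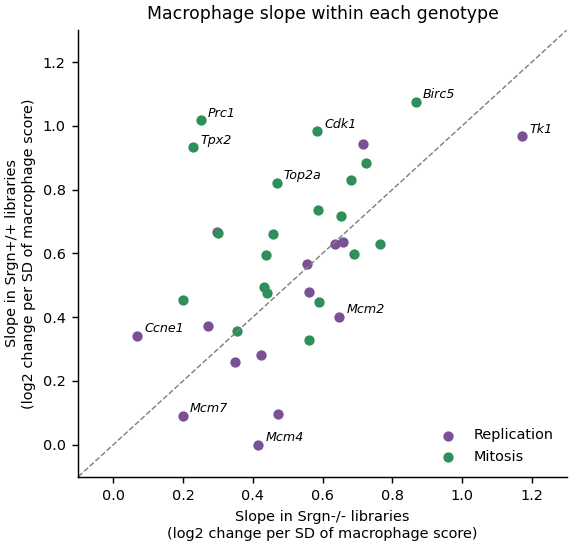
Slope on the macrophage score (log2 change per SD of the score) of each tested member over the 5 Srgn-/- libraries (x axis) and over the 5 Srgn+/+ libraries (y axis); replication genes are purple, mitosis genes green, and the dashed line marks equal slopes. Prc1 and Tpx2 lie farthest above the line and Mcm4 far below it; none of these differences was called.

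The count of called slopes fell when some libraries were left out, while the slopes of the members stayed positive for at least 34 of 35. Without Srgn+/+ 1, the library lowest in macrophage level and in most members, 20 of 35 members were called (8 replication, 12 mitosis), against 5.07% of all tested genes, with a median slope of 0.50 beside 0.54 over all 10 libraries. Without Srgn-/- 1 and Srgn+/+ 1 together 11 were called (Mcm5, Cdt1, Rrm2, Tk1, Top2a, Ccna2, Cdk1, Birc5, Ube2c, Cenpa and Cenpe), against 2.90%, with a median slope of 0.39. Without the 2 libraries farthest in score 14 were called, against 2.99%, with a median slope of 0.55. For any other single library left out the count was 29 to 31. With a score built from lipid-associated macrophage genes such as Trem2, Gpnmb and Spp1, which mark the lipid-laden macrophages of obese fat, 29 members were called, against 12.4%. With a score from resident macrophage genes such as Lyve1, Folr2 and Timd4, 1 member, Mcm2, was called, against 1.25%.

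With the macrophage score in the fit, most proliferation genes had higher values in Srgn-/- fat, where macrophage genes themselves had lower values (19 of 19 lower, median log2 fold change -0.47, 0 called). With the score as a covariate in the genotype test, 30 of 35 members had higher values in Srgn-/- fat, with a median log2 fold change of 0.36 beside 0.02 over all tested genes. Of these, 3 were called as higher by edgeR, against 0.126% of all tested genes. They were Ccna2 at 0.77 (adjusted p = 0.0287), Birc5 at 0.67 (adjusted p = 0.0397) and Cdk1 at 0.84 (adjusted p = 0.0426). At an unadjusted p under 0.05 stood 17 members, against 17.3% of all tested genes. Without the score the members' median was -0.07. The macrophage level differed by -0.41, Srgn-/- minus Srgn+/+, and all 35 members had positive slopes on the score. The covariate therefore had to raise their genotype values. The count of 30 is thus no separate sign of a genotype difference, and the members also vary together.

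These 3 calls lay near the threshold. The count was 0 when any 1 of Srgn-/- 1, Srgn-/- 3, Srgn-/- 5, Srgn+/+ 1 or Srgn+/+ 4 was left out. In these fits 0.0930%, 0.00778%, 0%, 0% and 0.0233% of all tested genes were called as higher. The log2 fold changes in the same 5 fits were 0.60 to 0.80 for Ccna2, 0.57 to 0.68 for Birc5 and 0.63 to 0.90 for Cdk1. The smallest adjusted p among members was 0.522 without Srgn+/+ 1 (edgeR), and those of Ccna2 were 0.0522 without Srgn-/- 3 and 0.0523 without Srgn+/+ 4. It was also 0 with the lipid-associated or the resident macrophage score in place of the first one, where 0.0472% and 0% of all tested genes were called, with medians over the members of 0.14 and 0.02. DESeq2 called 9 members as higher, against 2.03% of all tested genes, and limma-voom 3, against 0.204%.

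Genes of the same processes beyond the members rose with the score as well. Of 34 other replication genes tested, 17 rose with the score (50.0%) and 0 fell, with a median slope of 0.28. Over all tested genes 13.6% rose and 9.03% fell. Among those with the smallest p-values were Asf1b, a histone chaperone of newly copied DNA (slope 0.99), and Mcm10, a replication initiation factor (1.13). Of 60 other mitosis genes tested, 43 rose (71.7%) and 0 fell, with a median slope of 0.59. The smallest p-values belonged to Spc25, a kinetochore protein (slope 0.99), Kifc1, a kinesin (0.77), and Racgap1, which acts in cytokinesis (0.58). Neither list had a member called between genotypes by edgeR, or one with an unadjusted p under 0.05, against 12.8% of all tested genes at that unadjusted level. The smallest p-values there belonged to Pold1, Dnmt1 and Pola2 among the replication genes, with log2 fold changes of -0.27, -0.43 and 0.16, and to Cks1b, Sgol1 and Smc2 among the mitosis genes, with 0.18, -0.60 and 0.41. These lists, like the members, were drawn up with earlier results of these data known.

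Of 37 cell cycle regulators tested, 8 rose with the score (21.6%, against 13.6% of all tested genes) and 3 fell (8.11%, against 9.03%), with a median slope of 0.13. E2f8, a repressor of late E2F targets, rose with a slope of 0.77 (adjusted p = 0.00178, edgeR), and Mybl2, the B-Myb partner of the MuvB complex, with 0.73 (adjusted p = 0.00247). The CDK inhibitor gene Cdkn2c fell, with a slope of -0.20 (adjusted p = 0.00448). The other 2 that fell, named after their values were seen, were Ccnd3, a D-type cyclin, at -0.17, and Tfdp2, a partner of E2F factors, at -0.28. Between genotypes 0 of the 37 were called by edgeR, and 3 had an unadjusted p under 0.05 (8.11%, against 12.8% of all tested genes). E2f4 had a mean of 50.3 ± 8.91 CPM in Srgn-/- fat and 64.9 ± 3.17 CPM in Srgn+/+ fat (SD, n = 5 each; log2 fold change -0.37, adjusted p = 0.255, edgeR). Cdkn2c had a mean of 165 ± 30.4 CPM in Srgn-/- fat and 127 ± 15.7 CPM in Srgn+/+ fat (log2 fold change 0.37, adjusted p = 0.287), and Rb1, the retinoblastoma gene, had a log2 fold change of 0.23 (adjusted p = 0.338).

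Other cell types changed along the same gradient of libraries. The level of lipid-associated macrophage genes had r = 0.96 with the macrophage level over the 10 libraries, and 13 of its 14 genes rose with the score. For this and the counts that follow, 13.6% of all tested genes rose and 9.03% fell. Adipocyte genes ran the other way, with r = -0.91 with the macrophage level and r = -0.95 with the mitosis level; 9 of 14 fell and 1 rose. Mesothelial genes had r = -0.89 with the macrophage level, and 10 of 12 fell; endothelial genes had r = -0.86, and 8 of 14 fell. Of 13 adipose progenitor genes, 5 rose and 2 fell. Their level had r = 0.54 with the mitosis level and r = 0.21 with the macrophage level. Within a genotype, r with the macrophage level was -0.73 in Srgn-/- and 0.96 in Srgn+/+ libraries, over 5 libraries each. These r values are descriptions without a p, over libraries in which a larger share of one cell type lowers the share of another.

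Lymphocyte genes had lower levels in Srgn-/- fat, with none called, and low r values over the pooled libraries. In the genotype test, 8 of 12 T-cell and 5 of 11 B-cell genes had an unadjusted p under 0.05 (edgeR), against 12.8% of all tested genes. The genotypes did not overlap in 1 T-cell and 3 B-cell genes, against 2.78% of all tested genes. T-cell genes had r = 0.34 with the macrophage level and r = 0.09 with the mitosis level, and 0 of 12 slopes were called. Over all tested genes 13.6% of slopes were called as rising and 9.03% as falling. They summed to 22.4 to 39.4 CPM in Srgn-/- fat and to 36.03 to 97.3 CPM in Srgn+/+ fat. B-cell genes had r = 0.12 with the macrophage level and r = -0.22 with the mitosis level. Within a genotype, r with the macrophage level was -0.39 in Srgn-/- and 0.32 in Srgn+/+ libraries for T-cell genes, and -0.73 in Srgn-/- and -0.03 in Srgn+/+ libraries for B-cell genes. They summed to 29.0 to 44.3 CPM in Srgn-/- fat and to 49.4 to 178 CPM in Srgn+/+ fat. With the T-cell level as a further covariate, 30 of 35 members had a called slope, against 13.2% of all tested genes. Neutrophil genes had r = 0.78 with the macrophage level, with 2 of 4 tested genes rising, at 21.1 to 68.5 CPM in Srgn-/- fat and 9.43 to 71.3 CPM in Srgn+/+ fat in sum; Mpo and Ngp had 0 reads in all libraries. The number of reads per library had r = -0.21 with the mitosis level and 0.05 with the replication level. The part that these other cell types have in the rise of the proliferation genes was not tested.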

How the data were processed

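Whole-pad RNA of epididymal fat from 10 mice was read on an Ion AmpliSeq mouse transcriptome panel, per the labels' protocols. The authors deposited raw counts per gene for each library and the same values as RPM. Each deposited RPM equalled the count divided by the library total to within 0.00059109. The submitters' processing notes name build mm9; no label or file header names the aligner or the counter. Levels in the text are CPM from the deposited counts, with library totals taken over the genes kept by the filter and multiplied by the TMM factors.

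Counts were fitted with edgeR 4.0.16 in R 4.3.3 (TMM scaling, filterByExpr with a minimum count of 10 and a minimum total of 15, robust quasi-likelihood F test), over all genes. This kept 12719 genes and removed 11211. P-values were 2-sided and adjusted with Benjamini-Hochberg over all tested genes, at a threshold of 0.05. The slope fit held genotype and the macrophage score, the mean log2 CPM (prior count 2) of 19 genes; the 20th listed gene, C1qa, had at most 4 reads in a library. The genotypes' slopes were compared by an interaction term. Correlations were tested with 100000 permutations. DESeq2 1.42.0 and limma 3.58.1 were alternatives, and limma-trend used the deposited RPM on the log2(RPM + 1) scale. The fits were tested on simulated counts.

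The members and gene lists were chosen with earlier results of these data known. Named with values in every library were Mki67, Top2a, Mcm2 and, in each gene group, the 4 members with the smallest p in each test; of the other lists, the 3 with the smallest p, of which 1 is not reported here. Mcm7 and Bub1 were added after their values were seen. Replicates are separate animals. Promoter sequences came from RefSeq tables on GRCm38.p6, matched by symbol, and none of the files' coordinates were used with them.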

Additional observations from a re-analysis of the deposited data

Results flagged for a closer look

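In 78 groups of 5 libraries (each member in each genotype, and the group levels), 4 single libraries stood apart from the other 4 of their genotype by Dixon's test at the 95% level, where the critical value is 0.71. About 1 in 20 groups does so by chance, which is near the share found here. Rrm1, the large subunit of ribonucleotide reductase, had 39.8 CPM in Srgn-/- 1, above 23.8 to 27.8 CPM in the other Srgn-/- libraries. Ccnb2, a B-type cyclin, had 19.4 CPM in the same library, above 9.02 to 10.97 CPM. Bub1 had 2.35 CPM there, above 0.714 to 1.09 CPM, on 24 reads. Mcm2 had 9.24 CPM in Srgn+/+ 1, below 17.7 to 20.6 CPM in the other Srgn+/+ libraries. The 2 libraries concerned are those with the highest and the lowest level of both gene groups.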

How the results depend on the processing

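The genotype test called 0 members under every scaling, filter and tool tried and with any 1 library left out; with the macrophage score as a covariate it called 3. For the slope, 30 members were called; other scalings, filters, tools, scores from 5 macrophage or 14 lipid-associated genes, a T-cell covariate, no genotype term and the 3 libraries with epididymis RNA left out gave 25 to 31. Leaving out each library in turn gave 20 to 31. The count moved to 1 with the resident macrophage score and, in alternatives chosen after seeing the data, to 11 without Srgn-/- 1 and Srgn+/+ 1 together, 14 without the 2 libraries farthest in score and 19 in Srgn-/- alone, beside 24 in Srgn+/+ alone; fewer libraries enter those fits. The correlation count was 1 without the 2 farthest libraries, against 25. The 3 calls given the macrophage score ranged over 0 to 4 when each library was left out, were 0 without the 3 libraries with epididymis RNA and with either other score, and were 9 in DESeq2; these alternatives too were chosen after seeing the data. The cause was not tested.

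No named slope changed sign (283 values kept their side of the threshold and 14 lost it). Of the named genotype values, none of them called, 19 changed sign. Top2a was 0.0921 in limma-voom, 0.0688 in limma-trend against -0.12 in edgeR, Mcm2 was 0.20 without the 3 libraries with epididymis RNA, and without Srgn-/- 1 and Srgn+/+ 1 together Kif11 was -0.0621, Mki67 -0.51 and Prc1 -0.0526. With the macrophage score as a covariate Cdt1 was 0.34, Mcm2 0.25, Nusap1 0.0662 and Top2a 0.50. Leaving out each library in turn gave -0.34 to 0.102 for Top2a, -0.287 to 0.185 for Mki67, -0.327 to 0.073 for Mcm2 and -0.639 to 0.0417 for Cdt1. No paired analysis was possible because the replicate numbers were given in accession order and pair no animals. Depth limits the low members such as Bub1, Ccne2 and Cdc6 most.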
